A study of Bos taurus with 3 samples.

Results

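PPARG, CEBPA, CEBPB, CEBPD and KLF15 are transcription factors of the adipogenic programme. Their levels were read in the stromal-like and macrophage-like cells of 3 bovine mesenchymal stromal cell (MSC) cultures. Members were matched by gene symbol, and 4 of the 5 were found among the 21861 genes of the tables. These were PPARG (ENSBTAG00000001333), CEBPB (ENSBTAG00000051972), CEBPD (ENSBTAG00000046307) and KLF15 (ENSBTAG00000008313). CEBPA matched no symbol and was not analysed here.

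In fat cell formation, C/EBP beta and C/EBP delta are induced early by hormonal and glucocorticoid signals, and they in turn induce PPARG and C/EBP alpha. PPARG binds DNA with an RXR partner and switches on genes of fatty acid uptake and storage. KLF15 is a Krüppel-like factor that favours adipocyte differentiation. The same factors also work outside fat: PPARG controls lipid handling in macrophages, and C/EBP beta and delta drive acute-phase and inflammatory genes in myeloid cells.

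A single Holstein-Frisian cow, healthy, in the first lactation, labelled WT and untreated, gave all 3 tissues: adipose, bone marrow and peripheral blood. Cells grew in DMEM of low glucose that held 30% FBS until colonies appeared, and were then sequenced with droplet 3' chemistry that counts unique molecular identifiers (UMIs). Each tissue gave 1 library. A difference between tissues can therefore not be told apart from one between cultures or libraries, no test between groups was possible, and every interval below is a 95% interval that covers counting error only.

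The libraries held between 98016815 and 106322567 UMIs. Kept cells numbered 6088 in adipose, 9281 in marrow and 3192 in blood, with median depths of 14391, 9096 and 24884 UMIs. Between 4 and 10 barcodes were shared by any 2 libraries. Clusters with at least 3 stromal markers at 50 CPM (UMIs of a gene per 1000000 UMIs of the population) could be called stromal-like. These markers were mostly collagen and matrix genes, and no other class could have more markers among the 10 leading genes. Such clusters held 5409 adipose, 8304 marrow and 2413 blood cells. Clusters with more smooth muscle than stromal markers among those 10 were left unnamed. Stromal markers summed to 9775 and 24344 CPM in the unnamed adipose and blood cells, against 8270 and 16335 CPM in the stromal-like ones. Macrophage-like cells were cluster 10 of marrow (513 cells) and cluster 12 of blood (77 cells), and no such cluster was found in adipose. All 18 macrophage markers were above 10 CPM in both. Cluster 10 of marrow had 3 neutrophil-list genes (S100A8, S100A9 and S100A12) and 2 macrophage-list genes (LYZ and CTSS) among its 10 leading genes. The neutrophil receptors CSF3R and CXCR2 were at 0 UMIs there and in every other population, so they cannot tell the populations apart. Neutrophil-list genes summed to 28319 CPM in cluster 10 and 6718 CPM in cluster 12, beside 16917 and 12899 CPM for the macrophage markers. The marrow and blood clusters are therefore compared by number and not as one cell type.

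PPARG was highest in marrow cluster 10 and blood cluster 12, and among stromal cells it was lowest in the blood culture. Its level was 3.26 CPM in adipose stroma (268 UMIs, interval 2.88 to 3.67), 5.41 CPM in marrow stroma (474 UMIs, 4.93 to 5.92) and 0.289 CPM in blood stroma (20 UMIs, 0.177 to 0.447). It reached 43.4 CPM in marrow cluster 10 (149 UMIs, 36.7 to 50.9) and 27.9 CPM in blood cluster 12 (25 UMIs, 18.1 to 41.2). In that order of 5 levels, the intervals of the 2 macrophage-like clusters overlapped and no other neighbours did.

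CEBPD was detected strongly in every population and followed another order. Its level was 52.0 CPM in marrow stroma (4558 UMIs, 50.5 to 53.6), 126 CPM in adipose stroma (10329 UMIs, 123 to 128) and 229.7 CPM in blood stroma (15884 UMIs, 226 to 233). The macrophage-like clusters lay above all 3, with 299 CPM in marrow cluster 10 (1029 UMIs, 281 to 318) and 661 CPM in blood cluster 12 (592 UMIs, 609 to 716). No neighbouring intervals overlapped. Blood stroma, the lowest of the 5 populations in PPARG, was thus the highest of the 3 stromal populations in CEBPD.

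CEBPB stayed under 5 CPM everywhere. It was measured at 1.203 CPM in adipose stroma (99 UMIs, 0.978 to 1.46), 1.77 CPM in marrow stroma (155 UMIs, 1.501 to 2.07) and 2.62 CPM in blood stroma (181 UMIs, 2.25 to 3.03). Marrow cluster 10 had 4.07 CPM (14 UMIs, 2.23 to 6.83) and blood cluster 12 had 3.35 CPM (3 UMIs, 0.691 to 9.79). The 3 stromal intervals did not overlap one another, while that of blood cluster 12 overlapped all others and that of marrow cluster 10 overlapped blood stroma.

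KLF15 was close to the limit of detection. There were 12 UMIs in 5409 adipose stromal cells, 1 in 8304 marrow stromal cells and 5 in 2413 blood stromal cells, or 0.146, 0.0114 and 0.0723 CPM. Marrow cluster 10 had 5 UMIs (1.45 CPM, interval 0.472 to 3.39). Blood cluster 12 had 0 UMIs in 77 cells, which by the 3 counts taken as the limit of a count of 0 allows a level of up to 3.35 CPM and a share of up to 3.90% of cells with a UMI (exact 95% upper bounds 4.12 CPM and 4.68%).

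**Figure D1:**
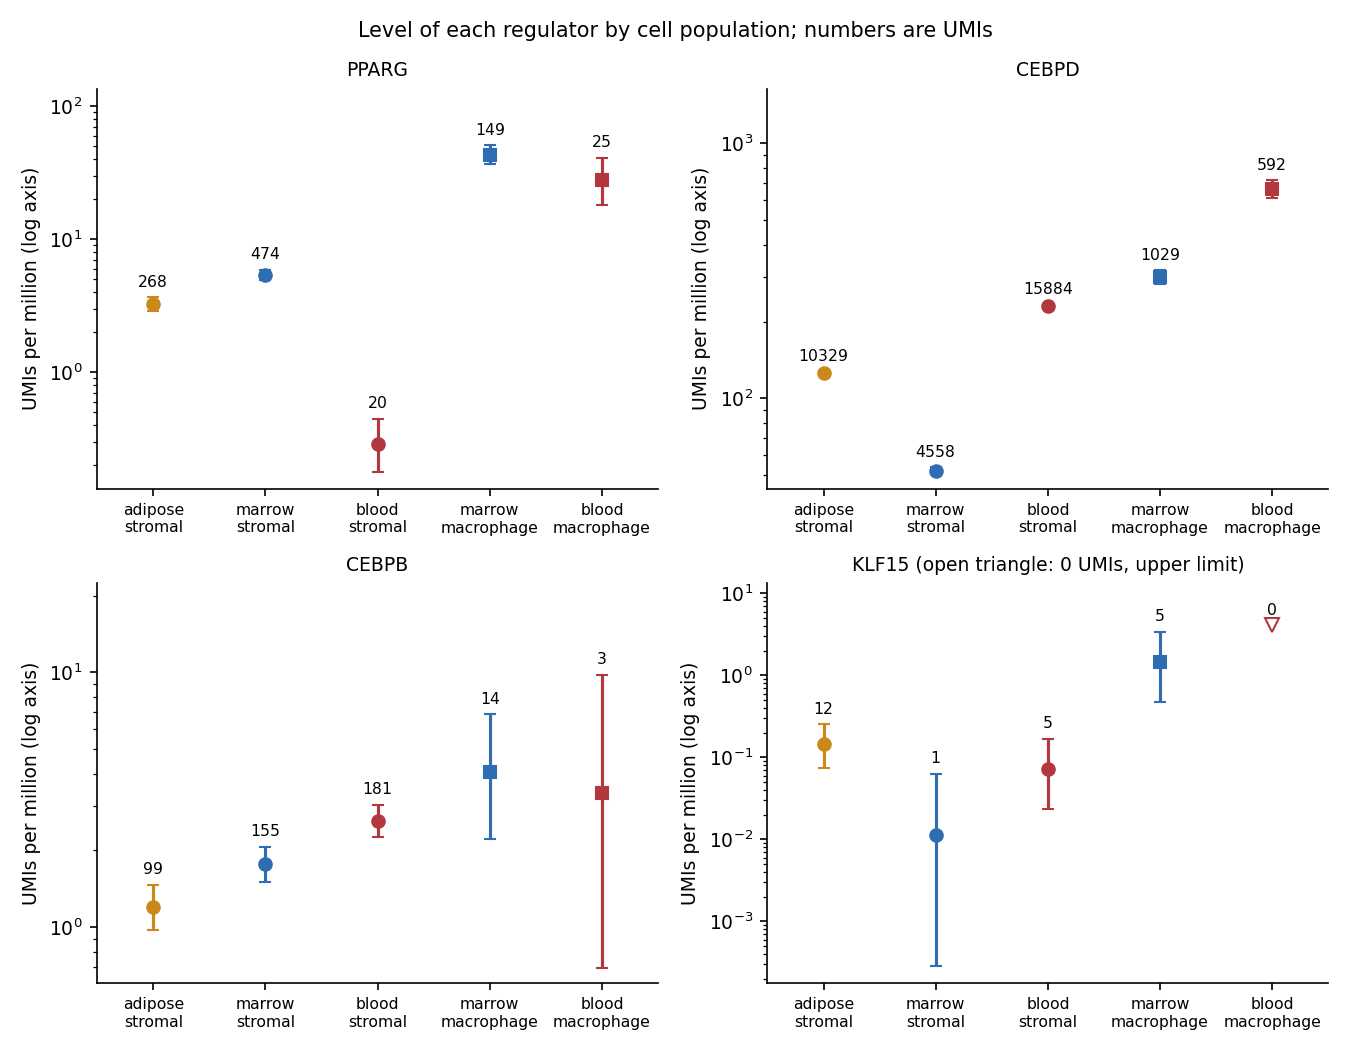
Level of PPARG, CEBPD, CEBPB and KLF15 in CPM (log axis) in the stromal-like cells of 3 libraries (circles) and the macrophage-like cells of 2 (squares). Bars are 95% intervals for counting error, printed numbers are UMIs, and the open triangle is the exact upper bound, 4.12 CPM, for 0 UMIs. PPARG falls to 0.289 CPM in blood stroma, where CEBPD is at 229.7 CPM.

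The share of cells with a UMI was read after each cell had been thinned to 3000 UMIs, a depth that every stromal-like and macrophage-like cell reached. PPARG was then seen in 0.906% of adipose, 1.42% of marrow and 0.0829% of blood stromal cells, the last being 2 cells of 2413. It was seen in 11.9% of marrow cluster 10 (61 of 513 cells) and 9.09% of blood cluster 12 (7 of 77). At 6000 UMIs it was seen in 0.0414% of blood stromal cells, 16.9% of blood cluster 12 and 21.9% of the 247 cells of marrow cluster 10 that reach that depth. Without thinning the shares were 3.96%, 5.03% and 0.787% in stroma and 25.1% and 27.3% in the macrophage-like clusters. Median depth in these 5 populations ran from 5874 UMIs in marrow cluster 10 to 25533 in blood stroma.

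CEBPD was seen in 28.7% of adipose, 13.3% of marrow and 40.8% of blood stromal cells after thinning, and in 58.7% and 81.8% of the marrow and blood macrophage-like cells. Its shares kept the order of its levels. In marrow cluster 10, CEBPD was seen in 59.0% of the 61 cells with PPARG and in 58.6% of the 452 cells without it. The interval of the first share ran from 45.7% to 71.4%.

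RNA outside cells carried both genes. Barcodes of 10 to 100 UMIs held PPARG at 1.91 CPM in adipose, 13.1 in marrow and 2.63 in blood, and CEBPD at 111, 103 and 336 CPM. By the gene that bounds it most tightly, such RNA could make up at most 0.400% of marrow stromal UMIs and 0.775% of blood stromal UMIs, but up to 20.7% of adipose stromal UMIs. After subtraction at those shares, PPARG stood at 3.61, 5.38 and 0.271 CPM and CEBPD at 129, 51.8 and 229 CPM in adipose, marrow and blood stroma. A population that should lack either gene was not defined here.

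Adipose and marrow stroma were compared first. A gene was called apart at a ratio of at least 2 with at least 10 CPM in the higher population, and 7.46% of 7240 genes were called. CEBPD was the only member above 10 CPM, and it was 2.41-fold higher in adipose (interval 2.33 to 2.50). PPARG was 1.66-fold higher in marrow (1.43 to 1.94) and CEBPB 1.47-fold higher in marrow (1.14 to 1.91), both under 10 CPM and so outside the call.

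The PPARG ratio of adipose over marrow stroma differed between low-cycling and other cells, and no order was resolved in the low-cycling ones. Low-cycling cells, those whose S and G2/M scores were both at or under 0, were 15.9% of adipose and 16.1% of marrow stroma. In these cells PPARG was at 5.89 CPM in adipose (81 UMIs) and 4.68 CPM in marrow (64 UMIs), a ratio of 1.26 for adipose over marrow (0.896 to 1.78). In the remaining stromal cells it was at 2.73 and 5.54 CPM, and marrow was 2.03-fold higher (1.71 to 2.43). Within adipose, PPARG was 2.16-fold higher in low-cycling than in other stromal cells (1.64 to 2.82), whereas the ratio within marrow was 0.844 (0.638 to 1.10). The split was in part one between clusters. In adipose cluster 8, with PPARG at 5.67 CPM, 75.7% of cells were low-cycling. In marrow cluster 0, which held 36.9% of marrow stromal PPARG UMIs, 9.49% were. The part of the clusters in these ratios was not tested.

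CEBPD was higher in low-cycling than in other stromal cells of all 3 libraries. The levels were 178 against 115 CPM in adipose, 77.4 against 47.3 CPM in marrow and 301 against 219.6 CPM in blood, which are ratios of 1.54 (1.47 to 1.62), 1.64 (1.53 to 1.75) and 1.37 (1.31 to 1.43). Its order over tissues was the same in both sets of cells. The blood clusters did not follow this split. CEBPD was at 98.9 CPM in blood cluster 2 (0% low-cycling cells) and 320 CPM in cluster 9 (0.216%). It was at 188 CPM in cluster 4 (88.8%) and 270 CPM in cluster 13 (96.8%). CEBPB had ratios of 0.890, 0.623 and 0.733, each with an interval that included 1.

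Against blood stroma, PPARG was 11.3-fold higher in adipose (7.15 to 18.7) and 18.7-fold higher in marrow (11.97 to 30.9). All levels of PPARG in stroma were under 10 CPM, so these ratios were outside the call. None of the 4 members was called between adipose and blood, where 5.38% of 7230 genes were. CEBPD was 1.83-fold higher in blood than in adipose (1.78 to 1.88), short of the 2-fold limit, and it passed that limit at 2.08 with coarser clustering (resolution 0.5 in place of 1). CEBPB was 2.18-fold higher in blood than in adipose (1.69 to 2.81). Between marrow and blood, 7.52% of 7288 genes were called, and of the members CEBPD was called, 4.42-fold higher in blood (4.27 to 4.56).

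Macrophage-marker UMIs moved with CEBPD in blood. The 18 markers summed to 18.4 CPM in adipose, 38.0 in marrow and 91.4 CPM in blood stroma, where LAPTM5 alone gave 59.0. In blood stromal clusters 0, 2, 3, 4 and 5, CEBPD was between 98.9 and 188 CPM and the markers summed to between 31.1 and 83.7 CPM. In clusters 6, 8, 9, 10 and 13, CEBPD was between 230.7 and 345 CPM and the markers between 88.4 and 148 CPM. CEBPD was at 172 CPM in blood stromal cells with no UMI of any macrophage marker. Under the same rule it was at 122 CPM in adipose and 51.3 CPM in marrow. That rule kept 613 of 2413 blood, 4146 of 5409 adipose and 5956 of 8304 marrow stromal cells. A cell of more UMIs passes less easily, and the median was 25533 UMIs in blood, 14143 in adipose and 9108.5 in marrow stroma. The part of depth and of the markers in these levels was not tested.

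**Figure D2:**
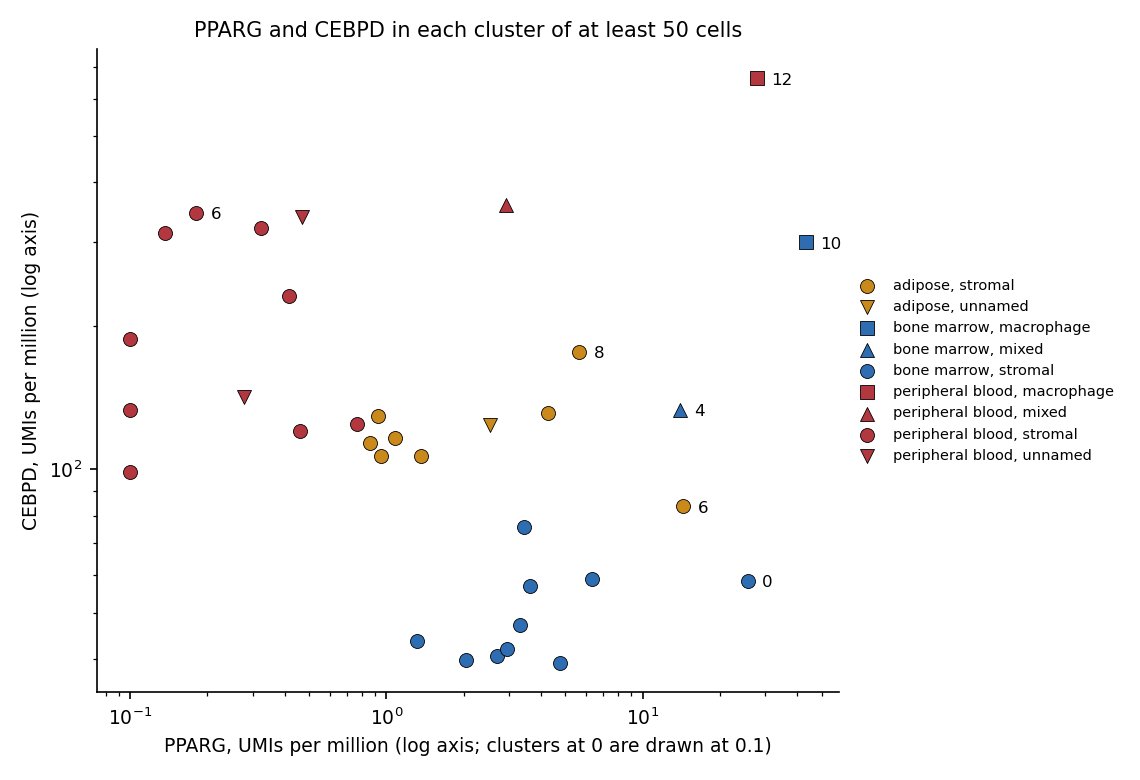
PPARG (horizontal) against CEBPD (vertical), both in CPM on log axes, with 1 point for each cluster of at least 50 cells, coloured by library and shaped by class. Only marrow clusters 0, 4 and 10, adipose clusters 6 and 8 and blood clusters 6 and 12 carry their number. Marrow cluster 0 and adipose cluster 6 stand to the right of the other stromal clusters of their libraries, and the blood stromal clusters lie at the left.

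Within the stromal cells, PPARG was highest in 1 cluster of marrow and 1 of adipose, and the marrow cluster was found under all 3 clusterings tried while the adipose one was not. The members were kept out of the genes used for clustering. These clusters were picked here because they held the most PPARG, so the values are a description. Marrow cluster 0, led by IGFBP5, CLDN15, IGFBP7, IL1RL1 and F3, had PPARG at 25.7 CPM against 3.70 CPM in the other marrow stromal cells. It made up 8.25% of marrow stromal cells and held 36.9% of their PPARG UMIs, 175 of 474. The other 9 marrow stromal clusters ran from 1.31 to 6.32 CPM. At resolution 0.5 the leading cluster of 717 cells held 655 of these 685 cells with PPARG at 24.1 CPM, and with members allowed in clustering one of 759 cells held 652 of them at 25.3 CPM.

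Adipose cluster 6, led by COL4A1, VWA5A, NES, PAWR and ARHGDIB, had PPARG at 14.4 CPM against 2.30 CPM in the other adipose stromal cells. It made up 7.69% of adipose stromal cells and held 35.1% of their PPARG UMIs, 94 of 268. Adipose clusters 8 and 4 followed with 5.67 and 4.29 CPM, and the other 5 lay between 0.866 and 1.36 CPM. This cluster depended on the clustering. At resolution 0.5 no adipose stromal cluster was above 5.45 CPM, and the leading one, of 1213 cells, held 40 of the 416 cells. With members allowed, 198 of the 416 fell in a cluster of 252 cells at 10.04 CPM, followed by one at 8.43 CPM. After thinning, PPARG was seen in 8.18% of cells of marrow cluster 0 (interval 6.23 to 10.49) and 0.814% of the other marrow stroma, and in 2.88% of adipose cluster 6 (1.499 to 4.98) and 0.741% of the other adipose stroma.

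Macrophage markers summed to 49.7 CPM in marrow cluster 0, above the 31.6 to 43.9 CPM of the other 9 marrow stromal clusters. They summed to 11.8 CPM in adipose cluster 6, within the adipose stromal range of 10.9 to 22.2 CPM. In the 459 cells of marrow cluster 0 without any such UMI, PPARG was at 26.2 CPM. The 347 cells of adipose cluster 6 without one had 14.2 CPM.

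CEBPD did not follow PPARG in adipose cluster 6 and was slightly higher in marrow cluster 0. It was at 83.6 CPM in adipose cluster 6, the lowest of the 8 adipose stromal clusters, against 129 CPM in the other adipose stromal cells. In marrow cluster 0 it was at 58.3 CPM against 51.5 CPM, a ratio of 1.13 (1.02 to 1.25). CEBPD was highest in adipose cluster 8 (177 CPM; led by ASPN, ACTA2 and SFRP2), where 75.7% of cells were low-cycling, and in marrow cluster 3 (75.7 CPM; led by SERPINF1 and CLU), where 62.9% were. Every marrow stromal cluster was below every adipose one in CEBPD, with ranges of 39.2 to 75.7 and 83.6 to 177 CPM, while the range of the 9 blood clusters of at least 50 cells, 98.9 to 345 CPM, overlapped that of adipose. CEBPB ran from 0.525 to 4.29 CPM over the stromal clusters of the 3 libraries.

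Genes linked to the members were then read in these clusters. In marrow cluster 0, 2.62% of 7151 genes were called against the other stromal cells, and so were 8 of the 65 genes above 10 CPM in the lists described next, members left out. Higher were the chemokine CCL2 (3.30-fold, 230.6 against 69.9 CPM), the fatty acid transporter CD36 (2.40-fold, 18.4 against 7.67 CPM), WNT5A (2.36-fold) and the metallothionein MT2A (2.34-fold, 1142 against 489 CPM). Lower were KLF4 (4.37-fold, 6.77 against 29.6 CPM), the C/EBP co-regulator TRIB3 (4.04-fold, 3.83 against 15.4 CPM), CXCL2 (2.82-fold, 5.15 against 14.5 CPM) and the kinase SGK1 (2.02-fold, 54.6 against 110.3 CPM). In adipose cluster 6, 1.22% of 7103 genes were called, and of 63 such list genes TRIB2 (2.02-fold higher) and ANGPTL4, a PPAR target (2.35-fold lower), were.

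Mature fat cell genes were scarce in stroma. None of the 9 markers found was above 10 CPM in any stromal population, and they summed to 9.43 CPM in adipose, 9.69 in marrow and 5.57 CPM in blood, with CIDEA the highest in each. The hormones ADIPOQ and LEP and the lipid droplet gene PLIN4 were at 0 UMIs in adipose stroma and blood stroma. LEP and PLIN4 were at 0 in marrow stroma.

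Genes around the members were read as 10 lists of pathway genes, counting those above 10 CPM. Among PPAR and RXR receptors and cofactors, 0 of 10 were called in each of the 3 stromal comparisons. The medians of their log2 ratios were 0.04 for adipose over marrow, -0.18 for adipose over blood and -0.31 for marrow over blood, beside 0.08, 0.07 and -0.01 for all genes. PPARD, a receptor of the same family, was at 11.4, 14.6 and 18.5 CPM in adipose, marrow and blood stroma, and the partner RXRA at 10.54, 9.55 and 12.2 CPM. Neither PPARD nor RXRA reached a 2-fold ratio in any pair. PPARG passed 2-fold only against blood stroma, at levels under 10 CPM and so outside the call.

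Of the C/EBP family and partners, 2 of 5 were called between adipose and marrow, CEBPD and TRIB2, 1 of 4 between adipose and blood, TRIB3, and 1 of 5 between marrow and blood, CEBPD. Of all genes, 7.46%, 5.38% and 7.52% were called in these pairs. Of the KLF family, 1, 2 and 1 of 6 were called. KLF4, which acts early in adipogenesis, was at 33.5 CPM in adipose, 27.8 in marrow and 69.9 CPM in blood stroma, and KLF13 was at 4.96, 14.3 and 11.6 CPM. Other pro-adipogenic factors gave 1 of 9, 2 of 9 and 1 of 8 calls, and anti-adipogenic factors 2 of 12, 2 of 14 and 4 of 14. GATA2, which holds back PPARG in preadipocytes, was at 29.4 CPM in adipose, 0.160 in marrow and 10.9 CPM in blood stroma.

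The lists of products and targets were read in the same pairs, where 7.46%, 5.38% and 7.52% of all genes were called. These lists share genes, CD36 among them. Adipocyte products and lipid storage had 2 of 9, 4 of 10 and 2 of 9 calls, and PPAR targets of macrophages 0 of 7, 4 of 9 and 2 of 8. FABP4, the fatty acid binding protein that PPARG induces in fat cells, was at 0.328 CPM in adipose, 4.93 in marrow and 19.8 CPM in blood stroma, the population with the least PPARG. It was among the leading genes of blood stromal cluster 4 (116 cells), so the blood average need not hold for all of that stroma. Glucocorticoid-induced genes had 1, 1 and 2 of 6 calls, and myeloid transcription factors 1 of 4, 1 of 3 and 2 of 4. Acute-phase and inflammatory C/EBP targets had 4 of 7, 3 of 7 and 5 of 6. The cytokine IL6 was at 6.25 CPM in adipose, 308 in marrow and 71.9 CPM in blood stroma, which is not the order of CEBPD or CEBPB.

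In marrow, PPARG was 8.01-fold higher in cluster 10 than in stroma (6.62 to 9.65) and CEBPD 5.76-fold higher (5.37 to 6.16). These were the 2 members above 10 CPM and both were called, where 52.1% of 7850 genes were called and 17.0% were called higher in the macrophage-like cells. CEBPB was 2.30-fold higher (1.23 to 3.98) at under 10 CPM. The median log2 ratio of all genes was -0.54, on the lower side for the macrophage-like cells.

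In blood, PPARG was 96.5-fold higher in cluster 12 than in stroma (51.5 to 183), resting on 25 and 20 UMIs, and CEBPD was 2.88-fold higher (2.65 to 3.12). Both were called, where 41.6% of 8123 genes were called and 18.9% were called higher. CEBPB had a ratio of 1.28 (0.261 to 3.80). With the coarser clustering, cells of cluster 12 fell together with mixed cells, and the ratios became 33.4 for PPARG and 1.63 for CEBPD, neither of them called.

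Low-cycling cells were 83.2% of marrow cluster 10 and 54.5% of blood cluster 12, against 16.1% and 14.1% of the stroma. Among low-cycling cells alone, PPARG was at 44.4 CPM in marrow cluster 10 and 4.68 CPM in marrow stroma, and CEBPD at 313 and 77.4 CPM. In blood, CEBPD was at 724 CPM in low-cycling cells of cluster 12 and 301 CPM in low-cycling stroma. PPARG was at 37.1 CPM and 0 UMIs in these blood cells. The 114 marrow barcodes of 1000 UMIs up to the cell threshold with at least 2% macrophage-marker UMIs held PPARG at 50.8 CPM and CEBPD at 475 CPM.

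Marrow cluster 10 and blood cluster 12 had PPARG in a ratio of 1.55 (1.01 to 2.48). Under other choices of cells and scale that ratio ran from 1.10, in cells of at least 10000 UMIs, to 5.28 at resolution 0.5 (43.7 against 8.27 CPM), where it passed the call. CEBPD was 2.21-fold higher in cluster 12 (1.99 to 2.45). CEBPD was the 1 member called, where 21.0% of 7415 genes were called. Its ratio fell under 2-fold, which ended the call, with scaling by the trimmed mean of M values, at resolution 0.5 (1.41-fold) and in the macrophage-like barcodes below the cell threshold (475 and 917 CPM, the latter on 41 UMIs). CEBPB had a ratio of 1.22 for marrow over blood (0.339 to 6.599). With a minimum of 50 CPM the share of genes called in the 6 comparisons, in the order given, was 6.16%, 4.46%, 6.68%, 57.9%, 43.6% and 16.7%, and 1 member, CEBPD, was called in each macrophage-like over stromal comparison. With no minimum the share was 26.8%, 23.8%, 26.2%, 64.0%, 59.7% and 37.4%, and 2, 3, 3, 4, 3 and 2 members passed. KLF15, on at most 12 UMIs in any population, was among them in all 6. Against the 0 UMIs of cluster 12, which allow 3.35 CPM, it has no direction, since its 0.0723 and 1.45 CPM in the other populations lie below that. Stromal markers summed to 311 CPM in cluster 10 and 1157 CPM in cluster 12.

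**Figure D3:**
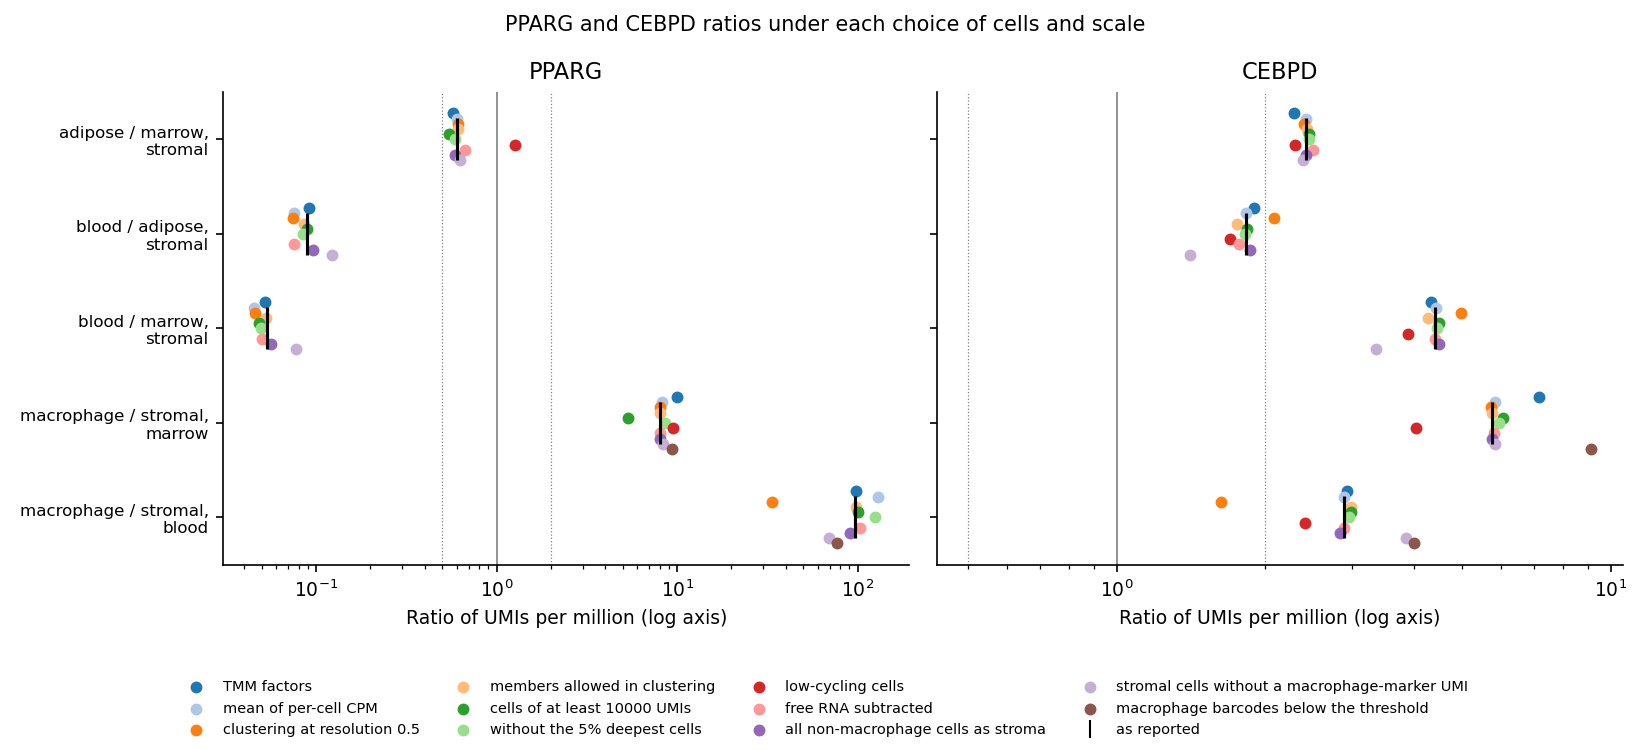
Ratios of PPARG (left) and CEBPD (right) between populations, on a log axis, as reported (black bars) and under each other choice of cells, clustering or scale (coloured points); the solid line marks 1 and dotted lines mark 0.5 and 2. The PPARG ratio of adipose over marrow stroma crosses 1 in low-cycling cells alone, where its interval (0.896 to 1.78) includes 1. The CEBPD ratio in blood drops to 1.63 at the coarser clustering.

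Of 11 PPAR and RXR receptors and cofactors, 3 were called higher in marrow cluster 10 than in stroma and none lower, beside 17.0% of all genes called higher. These were PPARG, its partner RXRA (8.71-fold, 83.2 against 9.55 CPM) and PPARD (5.64-fold, 82.6 against 14.6 CPM). In blood, PPARG, PPARD (3.07-fold) and RXRA (2.92-fold) were called higher and the partner RXRB lower (2.50-fold, on 5 UMIs), again of 11 and beside 18.9% of all genes called higher. The co-repressors and co-activators in that list were not called in either library. The medians of the list were 0.74 and 0.28 on the log2 scale, beside -0.54 and -0.18 for all genes.

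Among PPAR targets of macrophages, 9 of 12 were called higher in marrow cluster 10 and none lower, with a median log2 ratio of 3.05. In blood cluster 12, 7 of 12 were called higher and 1 lower, with a median of 1.56. FABP4 and CD36 are among the 10 leading genes of marrow cluster 10, so their height there is part of how the cluster was found. The scavenger receptor CD36 was at 1693 CPM in cluster 10 and 450.0 CPM in cluster 12. FABP4 was at 2115 CPM in cluster 10 (7270 UMIs) but 3.35 CPM in cluster 12 (3 UMIs), a ratio of 631 (216 to 3063). FABP4 was also the target called lower in cluster 12 than in blood stroma, a gene picked for that comparison after its values were seen. In blood stroma it is a leading gene of cluster 4, of 116 cells. PDK4, which spares glucose for fatty acid use, was at 61.1 CPM in cluster 10 and 127 CPM in cluster 12.

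**Figure D4:**
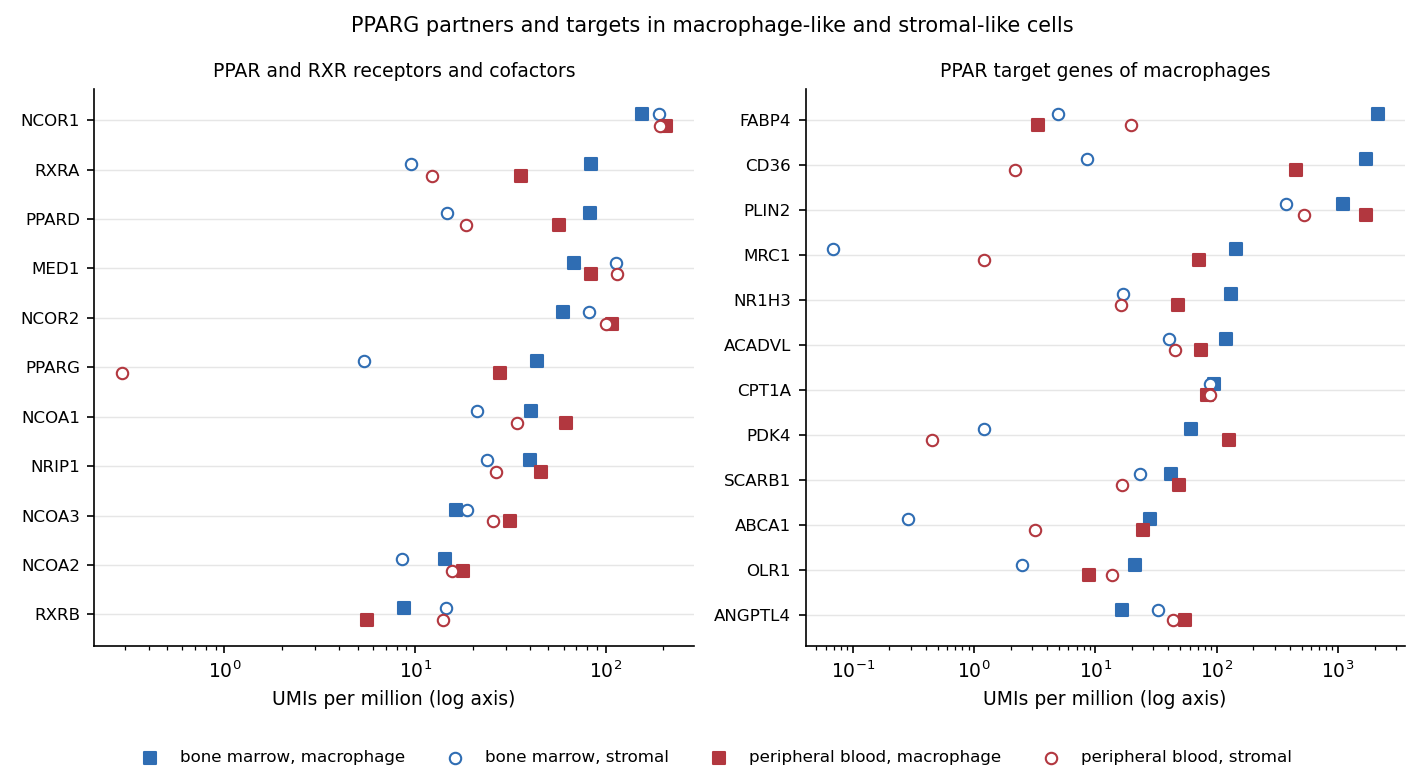
Levels in CPM (log axis) of PPAR and RXR receptors and cofactors (left) and PPAR target genes of macrophages (right) that passed 10 CPM in any of 4 populations. Filled squares are macrophage-like and open circles stromal-like cells, blue for marrow and red for blood. FABP4 is at 2115 CPM in the marrow macrophage-like cells and 3.35 CPM in those of blood.

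Of the C/EBP family and partners, 3 of 7 were called higher and 3 lower in marrow cluster 10, and 3 and 2 of 6 in blood cluster 12. Of all genes, 17.0% were called higher and 35.1% lower in cluster 10, and 18.9% higher and 22.7% lower in cluster 12. CEBPE, a granulocyte factor of the family, had 51 UMIs in cluster 10 and 3 in marrow stroma (14.8 and 0.0342 CPM), and 22 UMIs in cluster 12 with none in blood stroma, at least 566-fold higher when 3 UMIs are set for the stroma. TRIB1, which targets C/EBP alpha for degradation, was 4.40-fold and 4.06-fold higher. Acute-phase and inflammatory C/EBP targets were called higher for 7 of 8 genes and lower for 1 in cluster 10, and for 6 and 1 of 8 in cluster 12. IL1B had the largest ratio of that list in both, at 60.2 and 256 CPM, while CCL2 was at 3546 and 2569 CPM and CXCL8 at 1165 and 2891 CPM.

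For the other lists, myeloid transcription factors were called higher for 9 of 11 and 11 of 13 genes and lower for 0 and 1. SPI1, the master factor of the myeloid line, was at 286 and 199 CPM. Anti-adipogenic factors were called higher for 0 of 11 and 2 of 14 and lower for 7 and 9, with medians of -3.77 and -2.41 (-2.09 with genes at 0 UMIs set to 3). Of all genes, 35.1% and 22.7% were called lower, with medians of -0.54 and -0.18. Adipocyte products and lipid storage were called higher for 7 of 14 and 5 of 13 and lower for 3 and 5, and glucocorticoid-induced genes higher for 4 and 5 of 7 and lower for 1 and 1. The KLF family gave 1 and 3 of 6 higher and 1 and 2 lower, with KLF13 2.69-fold and 6.56-fold higher. Other pro-adipogenic factors gave 1 of 8 and 1 of 10 higher and 1 and 2 lower.

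Over the 34 clusters of at least 50 cells in the 3 libraries, the genes most like PPARG by Pearson's correlation of log2(CPM + 1) were CMIP (0.89), SNX10 (0.83) and FURIN (0.82). Those most like CEBPD were MVP (0.94), IRF1 (0.93) and VSIG10L (0.93). They were ranked among 6614 and 6613 genes. The clusters share libraries, donor and depth, and the values are a description.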

How the data were processed

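The authors deposited raw 10x matrices of UMI counts per gene and barcode, not normalized. The submitters' processing notes name Cell Ranger 6.1.1 and the build ARS-UCD1.2, while the file headers carry software version 4. Members and gene lists were chosen with earlier results of these data known. Cells were barcodes with at least the UMIs of the 99 percentile of the top 3000 barcodes divided by 10, giving thresholds of 4438 to 7489 UMIs. No doublet caller was run and no doublets were removed. Each library was clustered in scanpy 1.11.5 (2000 variable genes without the members, 30 components, 15 neighbours, Leiden resolution 1). Clusters were named by markers: at least 3 of a class in the top 50 genes by fold, or at least 3 stromal markers at 50 CPM. A cluster was left unnamed if the first rule gave smooth muscle or pericyte. So was one that met only the second rule but had more top 10 markers of another class than stromal ones. UMIs were summed per population; levels are CPM with exact Poisson intervals, ratios have exact conditional intervals and shares Clopper-Pearson intervals. A count of 0 allows 3. Named genes are the members, up to 4 called genes per list and comparison by size of ratio, the 3 genes most like each member above 10 CPM, and the highest gene of a marker list. In simulated counts, 200 of 200 genes changed 3-fold were called in each of the 6 comparisons. These were Poisson counts with no spread between libraries, scored only for genes with a mean of at least 2 times the 10 CPM minimum. That leaves out CEBPB and KLF15. It also leaves out PPARG in the stromal comparisons and in that of blood cluster 12 with blood stroma. In the 2 comparisons with blood cluster 12, 4 and 7 of 200 genes changed by less than 2-fold and 7 of 5091 and 13 of 4528 unchanged genes were called, against 0 in the other 4. TMM factors came from edgeR 4.0.16. Alternatives changed clustering, cells, scaling, free RNA, the CPM minimum and thinning.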

Additional observations from a re-analysis of the deposited data

Results flagged for a closer look

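Signal of the members outside the compared populations was present in 15 cases, each with more than 3 UMIs; these cells entered no comparison. In adipose, 39 endothelial-like cells had PPARG at 11.4 CPM (5 UMIs, interval 3.71 to 26.7) and CEBPD at 82.3 CPM. The 640 unnamed adipose cells, whose larger cluster was led by ANKRD1, CNN1 and ACTA2, had PPARG at 2.64 CPM, CEBPB at 1.57 CPM and CEBPD at 125 CPM.

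In marrow, 464 cells that carried both macrophage and stromal transcripts and had a median of 14242 UMIs had PPARG at 14.0 CPM (108 UMIs), CEBPB at 1.56 CPM, CEBPD at 133 CPM and KLF15 at 0.778 CPM (6 UMIs). Their PPARG and CEBPD lay between those of marrow stroma and cluster 10. In blood, 81 such cells with a median of 30981 UMIs had PPARG at 2.92 CPM (10 UMIs), CEBPB at 4.09 CPM and CEBPD at 358 CPM. The 621 unnamed blood cells had PPARG at 0.382 CPM (6 UMIs), CEBPB at 2.61 CPM and CEBPD at 248 CPM. Their 2 clusters differed in CEBPD, with 142 CPM in cluster 1 and 338 CPM in cluster 7.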

How the results depend on the processing

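No paired analysis was possible because each tissue has 1 library and the labels carry no replicate numbers. None of the results reversed a call. The counts of called genes and the shares moved mainly with the CPM minimum and the depth, by construction. With a minimum of 50 CPM the called genes numbered 195 for adipose over marrow stroma, 141 for adipose over blood stroma, 209 for marrow over blood stroma, 2014 for marrow cluster 10 over stroma, 1598 for blood cluster 12 over stroma and 500 for cluster 10 over cluster 12, and 1 member was called in each macrophage-like over stromal comparison. With no minimum they numbered 4385, 3837, 4253, 10173, 9225 and 4716, and the members called were 2, 3, 3 and 4 in the comparisons up to marrow cluster 10 over stroma and 2 for cluster 10 over cluster 12, with KLF15 on at most 12 UMIs among them. Clustering at resolution 0.5 gave 1 member called for adipose over blood stroma, 639 genes and 0 members for blood macrophage-like over stromal cells, and 2683 genes between the macrophage-like cells, where PPARG was then called in place of CEBPD. TMM factors left 0 members called between the macrophage-like clusters. With macrophage-like barcodes below the cell threshold, an alternative chosen after seeing the data, as was leaving out stromal cells with a macrophage-marker UMI, 5534 genes were called in blood and 3943 between marrow and blood, where CEBPD lost its call and PPARG, on 17 and 1 UMIs, gained one. Shares of cells with PPARG at 6000 UMIs were 1.65%, 2.92% and 0.0414% in adipose, marrow and blood stroma and 21.9% and 16.9% in marrow cluster 10 (247 of 513 cells) and blood cluster 12, and without thinning 3.96%, 5.03%, 0.787%, 25.1% and 27.3% in the 3 stromal and 2 macrophage-like populations. Shares with CEBPD at 6000 UMIs were 47.6%, 23.4%, 59.8%, 81.0% and 97.4%, and without thinning 71.6%, 34.2%, 89.3%, 81.5% and 98.7%. KLF15 and CEBPB are limited by depth: blood cluster 12 held 895626 UMIs, in which 3 UMIs are 3.35 CPM.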
